A study of Mus musculus with 4 samples.

Results

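The binding of CTCF inside very long genes was examined in mouse testes. All autosomal protein-coding genes of the RefSeq annotation that span 500 kb or more were taken, and a peak of CTCF was counted as a member when its summit lay inside such a gene and over 1 kb from both of its ends. The gene without that 1 kb at each end is called its interior. Of 20560 autosomal protein-coding genes, 216 were long enough, and their interiors held 1699 of the 50267 autosomal peaks (3.38%), out of 51871 peaks in all. The rule used gene length and position only, so peak density, spacing and enrichment were free to vary. The study profiled CTCF by chromatin immunoprecipitation and sequencing (ChIP-seq) in whole, unsorted testes of F1 (B6xCAST) mice, with 2 immunoprecipitated and 2 input samples and no treated group. The testes had been frozen and were thawed in paraformaldehyde. Since they were not sorted, germ cells of all stages and somatic cells cannot be told apart. The values come from 1 merged peak list, whose peak names also carry the word bio2, and whether 1 or both immunoprecipitated samples entered it is not known here. There is no value per sample, so no difference between animals could be measured, no replicate check was possible and the depth is unknown.

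CTCF is a zinc-finger protein that binds DNA in a sequence-specific way and stops cohesin, the ring complex that extrudes chromatin loops, so that its sites mark loop anchors and domain boundaries. It also binds many promoters. In meiotic cells of the testis, cohesin complexes form the axis from which chromatin loops emanate, and CTCF has a germline paralog, CTCFL. Very long mammalian genes are mostly introns by length. Many encode adhesion molecules, receptors and channels of nerve cells, and several are known as common fragile sites, places where chromosomes break under replication stress.

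The clearest fixed points inside such genes are internal start sites, where RefSeq annotates a shorter transcript of the same gene. The RefSeq promoter table (assembly GRCm38.p6, which shares its chromosome coordinates with mm10) gave 135 starts inside 82 of the 216 long genes, over 1 kb from both gene ends. Starts within 1 kb of each other were grouped, which left 122 places. Of these, 17 had a summit within 1 kb (13.9%, exact binomial 95% interval 8.33 to 21.4%), each in a different gene. Over all autosomal protein-coding genes, counted the same way, 25.2% of 3432 such places had one. Together they took 20 summits, 1.18% of the member peaks. The 250 bases upstream of the start are shown for the 7 genes in which they hold the nearest summit itself, in the order of its enrichment, with 1 of the 2 nearby starts of Pcdh9. These genes encode a cyclic AMP phosphodiesterase (Pde4b), an adhesion molecule of axons (Cntnap2), a protocadherin (Pcdh9), a postsynaptic adhesion molecule (Nlgn1), a calcium channel subunit (Cacna1c), an acid-sensing ion channel (Asic2) and a neuron navigator (Nav2). Each sequence is written in the direction of transcription and ends at the base before the start site, with the 41 bases centred on the summit in capitals.
Pde4b: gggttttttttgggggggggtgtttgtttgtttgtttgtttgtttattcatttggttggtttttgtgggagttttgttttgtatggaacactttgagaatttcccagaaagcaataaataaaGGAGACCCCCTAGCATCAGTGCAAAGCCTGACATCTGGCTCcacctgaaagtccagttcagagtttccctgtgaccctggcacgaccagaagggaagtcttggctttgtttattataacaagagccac
Cntnap2: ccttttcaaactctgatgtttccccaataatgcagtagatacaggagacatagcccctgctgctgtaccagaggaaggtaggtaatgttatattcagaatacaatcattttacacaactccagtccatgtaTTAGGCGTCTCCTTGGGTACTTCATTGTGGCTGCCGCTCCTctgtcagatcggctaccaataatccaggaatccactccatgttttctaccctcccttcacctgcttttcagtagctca
Pcdh9: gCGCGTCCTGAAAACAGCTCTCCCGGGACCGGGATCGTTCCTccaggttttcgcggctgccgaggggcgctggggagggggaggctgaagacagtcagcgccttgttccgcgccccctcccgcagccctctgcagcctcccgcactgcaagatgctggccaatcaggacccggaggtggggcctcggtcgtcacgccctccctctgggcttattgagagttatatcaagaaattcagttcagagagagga
Nlgn1: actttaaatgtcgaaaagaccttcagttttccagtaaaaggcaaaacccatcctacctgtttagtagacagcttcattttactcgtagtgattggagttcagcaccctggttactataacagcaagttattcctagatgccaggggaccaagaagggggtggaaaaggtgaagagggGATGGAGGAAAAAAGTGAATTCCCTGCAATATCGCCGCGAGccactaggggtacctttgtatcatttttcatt
Cacna1c: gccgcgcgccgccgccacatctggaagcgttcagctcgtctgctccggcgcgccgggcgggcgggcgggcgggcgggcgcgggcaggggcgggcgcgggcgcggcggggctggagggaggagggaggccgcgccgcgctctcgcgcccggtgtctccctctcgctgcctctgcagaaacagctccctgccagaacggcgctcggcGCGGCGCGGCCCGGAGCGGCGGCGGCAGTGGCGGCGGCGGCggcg
Asic2: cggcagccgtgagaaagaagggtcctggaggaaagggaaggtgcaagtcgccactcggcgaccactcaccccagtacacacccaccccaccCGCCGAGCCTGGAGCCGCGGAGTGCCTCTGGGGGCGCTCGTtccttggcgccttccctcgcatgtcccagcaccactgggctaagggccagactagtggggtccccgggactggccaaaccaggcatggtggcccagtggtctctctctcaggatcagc
Nav2: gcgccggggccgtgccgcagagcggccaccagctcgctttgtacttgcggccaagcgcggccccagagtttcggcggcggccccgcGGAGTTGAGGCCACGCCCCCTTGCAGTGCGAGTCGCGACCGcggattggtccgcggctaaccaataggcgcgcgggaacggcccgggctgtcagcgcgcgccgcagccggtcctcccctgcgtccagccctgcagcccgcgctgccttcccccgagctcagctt

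The Pde4b window (chr4:102569810-102570059, plus strand) had its summit 108 bases before the start, with a fold enrichment of 15.4, the fold being the authors' ratio of signal over background at the summit. In the Cntnap2 window (chr6:47244146-47244395, plus strand) the summit lay 99 bases before the start, with a fold of 10.5. The Nlgn1 window (chr3:26153987-26154236, minus strand) had it 53 bases before the start, with a fold of 8.83. In the Pcdh9 window (chr14:93890670-93890919, minus strand) it lay 229 bases before the start, with a fold of 9.80. The summit was weaker in the other windows. It lay 25 bases before the start in the Cacna1c window (chr6:119108496-119108745, minus strand), with a fold of 5.85. It lay 139 bases before the start in the Asic2 window (chr11:81152904-81153153, minus strand), with a fold of 4.07, and 144 bases before it in the Nav2 window (chr7:49245939-49246188, plus strand), with a fold of 2.82. The starts differ in how far inside their gene they are. The Nav2 start was 287 kb from the nearer gene end, the Asic2 start 273 kb and the Cacna1c start 88.9 kb. The Nlgn1 start was 179 kb from the nearer gene end, the Cntnap2 start 57.0 kb, the Pde4b start 37.2 kb and the Pcdh9 start 2.17 kb. A CTCF core was searched on both strands as AGGTGGC or AGGGGGC or AGATGGC or AGAGGGC. The Pcdh9 window held 2 matches on its other strand, GCCCCCT beginning 139 bases and GCCCTCT beginning 126 bases before the start, both outside the capitals. The Nav2 window held 1, GCCCCCT beginning 150 bases before the start and inside the capitals. The other windows shown held none, which says only that these letters are not in these windows. Of 31396 autosomal promoter windows of the same 250 bases, 7475 held at least 1 match (23.8%). Exon and intron positions were not used here, so peaks are placed by gene and distance only.

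CTCF peaks were sparse inside the long genes. Their interiors held 1699 summits in 180 Mb, or 9.45 summits per Mb. The 500 kb on each side of them, starting 1 kb outside the gene and leaving out other long genes, held 3340 summits in 202 Mb, or 16.6 per Mb. The interiors of the 18077 shorter protein-coding genes, outside the long ones, held 19943 summits in 767 Mb, or 26.02 per Mb. Within single autosomes the long genes averaged 10.7 ± 5.87 summits per Mb and the shorter genes 25.8 ± 4.08 (SD, n = 19 autosomes). The mean log2 ratio within an autosome was -1.40 ± 0.68 (SD), a ratio of 0.379, and the long genes were lower on 18 of 19 autosomes. By an exact two-sided sign-flip permutation test over autosomes this gave p = 1.14e-05, or 1.91e-05 after Benjamini-Hochberg adjustment over 5 tests. The smallest p that 19 autosomes allow is 3.81e-06. Autosomes of 1 list are the units of this test, so it does not measure the spread between animals.

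**Figure D1:**
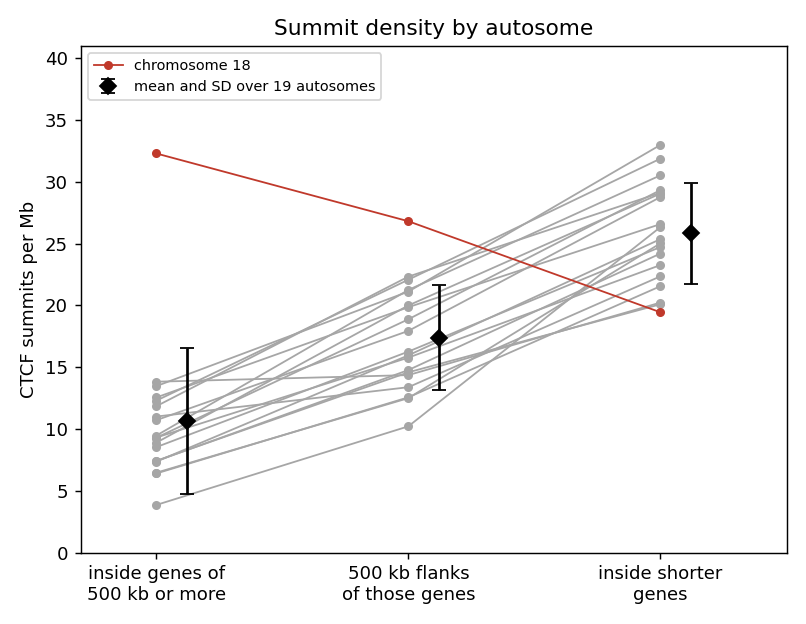
CTCF summits per Mb (vertical axis) in the interiors of genes of 500 kb or more, in their 500-kb flanks and in the interiors of shorter genes (horizontal axis). Each line is 1 of the 19 autosomes, and diamonds with bars are the mean and SD. The long genes are lowest on 18 autosomes, and on chromosome 18 they reach 32.3, above its flanks and shorter genes.

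The long genes were also sparser than their own surroundings. Their interiors averaged 10.7 ± 5.87 summits per Mb over the 19 autosomes and their flanks 17.4 ± 4.24 (SD). The mean log2 ratio was -0.81 ± 0.41 (SD), a ratio of 0.571, with the interiors lower on 18 of 19 autosomes (exact sign-flip permutation test, adjusted p = 1.91e-05). Chromosome 15 had the lowest interiors, at 3.85 per Mb, with 10.2 in the flanks and 26.3 in its shorter genes. Chromosome 18 ran the other way, at 32.3 per Mb in long genes, 26.8 in the flanks and 19.4 in shorter genes. Its value rests on 3 overlapping gene models, Gm37013, Gm38666 and Gm38667, which span the clustered protocadherin genes. Without these models, a setting added after the data were seen, the interiors were lower than the shorter genes on 19 of 19 autosomes, with a ratio of 0.359, and lower than the flanks on 19 of 19, with a ratio of 0.555.

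Mean summit density was lower in each longer class of genes. Averaged over autosomes, genes below 20 kb had 42.8 ± 7.46 summits per Mb of interior, those of 20 to 50 kb 32.4 ± 4.51 and those of 50 to 100 kb 28.0 ± 4.03 (SD over autosomes throughout). The level was 24.0 ± 4.13 at 100 to 200 kb, 19.9 ± 3.80 at 200 to 300 kb and 15.1 ± 3.42 at 300 to 500 kb. Genes of 500 to 1000 kb (n = 161) had 13.4 ± 12.2, or 11.4 ± 4.34 without the 3 protocadherin models, and genes of 1000 kb or more (n = 55) had 7.73 ± 4.35. Neighbouring classes overlap within their SDs, and the steps between them were not tested. In each class a summit shared by overlapping genes was counted once per gene. On that count chromosome 18 had 62.4 summits per Mb at 500 to 1000 kb. Among the 216 long genes themselves, length and density were only loosely related (Spearman correlation -0.17, a description across genes that share chromosomes and surroundings). A gene's interior density went more with that of its flanks (Spearman correlation 0.59, Pearson correlation 0.64 across the 216 genes, again a description). Densities varied on both sides of the length limit. Just inside it, Edil3 (502 kb) had 0 summits per Mb, Dock1 (503 kb) 13.97 and Samd12 (503 kb) 5.98, while just outside it Dnm3 (496 kb) had 22.3, Lrrc7 (495 kb) 10.1 and Cacna1e (494 kb) 10.2.

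**Figure D2:**
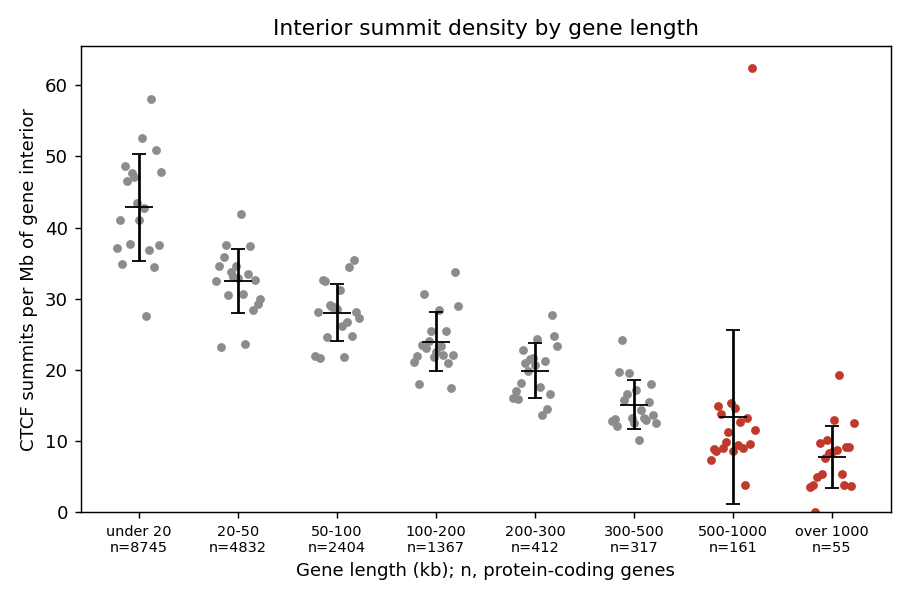
Summits per Mb of gene interior (vertical axis) for classes of gene length (horizontal axis), with points for single autosomes and bars for the mean and SD over autosomes. The mean is 42.8 for genes below 20 kb and 7.73 for genes of 1000 kb or more. The lone high point at 500 to 1000 kb is chromosome 18, where summits shared by overlapping genes are counted once per gene.

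Gene by gene, 162 of the 216 long genes (75%, exact binomial 95% interval 68.7 to 80.6%) had a lower interior density than their own flanks, counted here in full on both sides. Of all protein-coding genes of 100 kb or more, 65.9% did, and of those of 100 to 500 kb 1362 of 2096 did (65.0%, 62.9 to 67.0%). The interval takes genes as independent, which neighbouring and overlapping genes are not, so it does not test the difference. The 65.9% also includes the long genes. No interior summit was found in 10 of the 216 long genes, where 7.74% of all genes of 100 kb or more had none. By length that share was 9.51% at 100 to 200 kb, 5.10% at 200 to 300 kb and 5.68% at 300 to 500 kb. It was 5.59% at 500 to 1000 kb and 1.82% at 1000 kb or more, with no adjustment for interior length. Median density over the 216 genes was 7.93 summits per Mb, with quartiles of 4.44 and 13.4, and the number of summits per gene ran from 0 to 66 with a median of 6. In all, 60 genes lay below 5 per Mb and 27 above 20 per Mb. These cuts were not applied to shorter genes. Those of 300 to 500 kb had a median of 12.6 per Mb, with quartiles of 6.70 and 20.8. Long genes can overlap: 5 of them overlap another, and 69 member peaks were counted in more than 1 gene. The pooled densities of all long genes count each peak once, and those by length class do not.

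**Figure D3:**
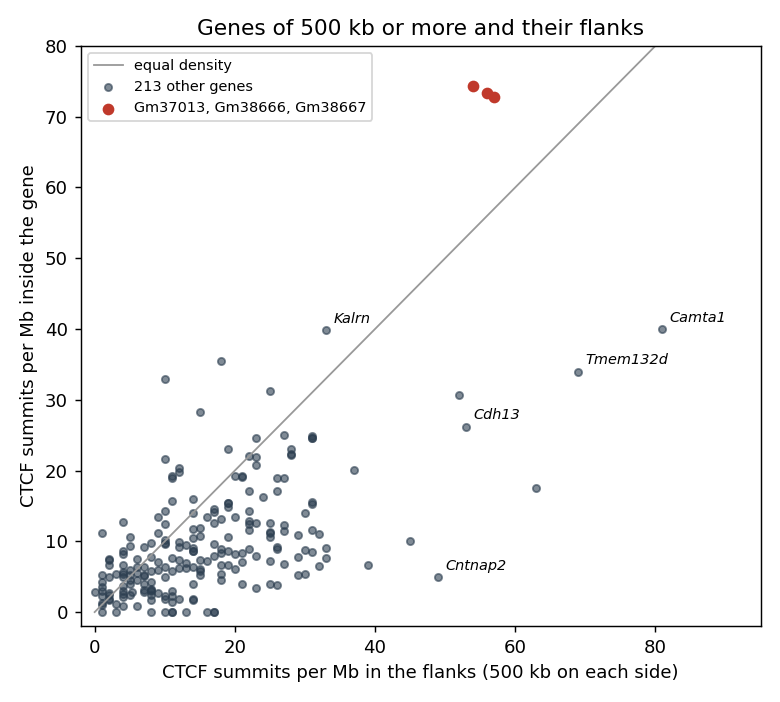
Interior density (vertical axis) against the density of the flanks on both sides (horizontal axis), both in summits per Mb, with 1 point per long gene. Of 216 points, 162 lie below the line of equal density, and the 3 protocadherin models stand apart at 72.7 to 74.4 per Mb.

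The 10 longest genes differed widely. Ptprd, a receptor tyrosine phosphatase of 2271 kb, held 8 summits, or 3.53 per Mb (exact Poisson 95% interval 1.52 to 6.95, counting error only), in surroundings of 1 per Mb. Cntnap2 (2241 kb) held 11, or 4.91 per Mb (2.45 to 8.79), with 49 per Mb in its flanks. The immunoglobulin-domain adhesion molecule Lsamp had 18 summits, or 8.20 per Mb, with 4 per Mb around it. Lrp1b, a receptor of the LDL receptor family that spans 2058 kb, had 2 summits, at 41060935 and 41186987 on chromosome 2, with folds of 5.07 and 5.25. Its density was 0.97 per Mb (0.12 to 3.51), in flanks of 1 per Mb. Fhit, a nucleotide hydrolase at a fragile site, had 4 summits with folds of 3.80 to 6.54, or 2.48 per Mb against 8 per Mb in its flanks. Macrod2, a hydrolase that removes ADP-ribose from proteins, had 5.01 per Mb against 10, and the postsynaptic scaffold gene Dlg2 had 7.61 against 33. Csmd1, which encodes a membrane protein with CUB and sushi domains, had 9.75 per Mb against 8. Nrxn3, a presynaptic adhesion molecule, had 8.69 against 14, and the alpha-catenin gene Ctnna3 had 11.5 against 27. So 3 of these 10 genes, Ptprd, Lsamp and Csmd1, held more summits per Mb than their flanks.

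Several genes held a long stretch without a summit. In Cntnap2, 791 kb between 46075481 and 46866504 on chromosome 6 held none. In Nrxn3, 13 of the 14 summits lay between 88992336 and 89555197 on chromosome 12. Lrp1b had 1467 kb without a summit, 71.3% of the gene. Erbb4, the receptor for neuregulins, held 1 summit with a fold of 10.4 and an empty stretch of 1002 kb, 93.1% of its length. Naaladl2, a relative of glutamate carboxypeptidase, spans 1346 kb and had no summit in its interior, with 1 within 1 kb of an end. The largest gap between neighbouring summits of 1 gene was 964 kb, in Nkain2, which encodes a partner of the sodium pump. Magi2, a membrane-associated scaffold, had a gap of 948 kb and Agbl4, a carboxypeptidase that trims glutamate from tubulin, one of 815 kb. Over the members with more than 1 summit, the largest gap of a gene had a median of 222 kb and exceeded 500 kb in 17 genes. With the stretches out to the gene ends counted too, the longest empty stretch over all members had a median of 328 kb and passed 500 kb in 52 genes.

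**Figure D4:**
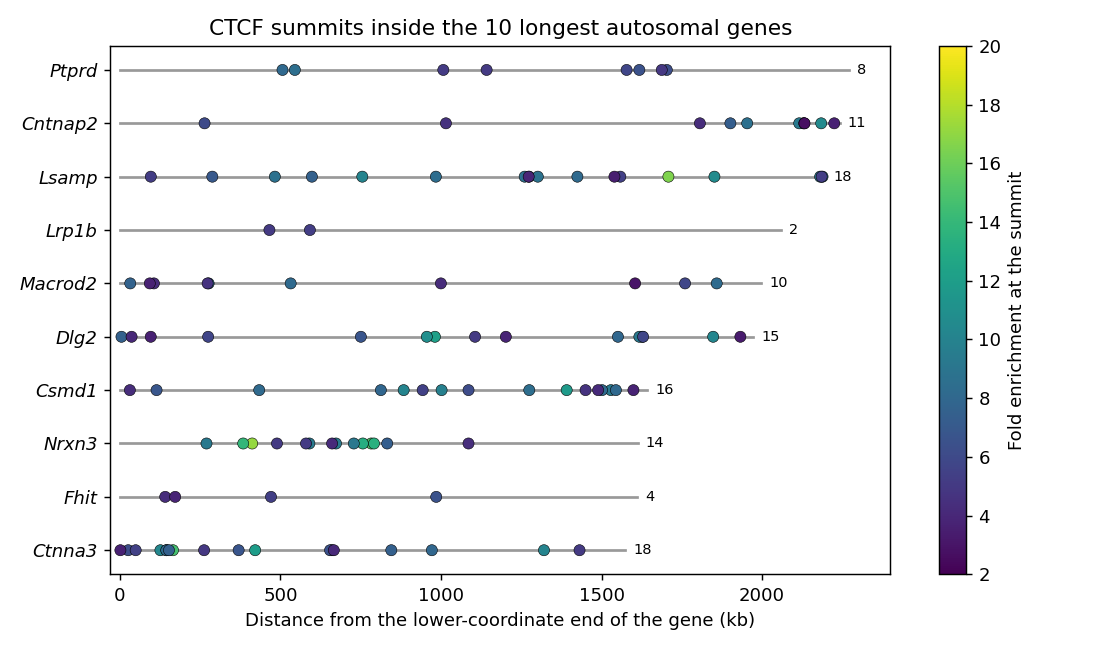
Positions of CTCF summits along the 10 longest genes, 1 row per gene, as distance from the gene's lower-coordinate end in kb (horizontal axis). The colour of a mark gives the deposited fold enrichment and the number at the right the count of summits. Lrp1b has 2 summits and no other over 1467 kb, and 9 of the 11 of Cntnap2 lie beyond its gap of 791 kb.

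Summits inside long genes stood farther apart. Such distances depend on summit density, so this comparison is not independent of the density comparison above. A summit inside a long gene had its nearest summit, anywhere in the list, at a median of 18.4 kb, and a summit inside a shorter gene at 8.26 kb. Over the autosomes the medians averaged 24.0 ± 16.6 kb in long genes and 8.61 ± 1.48 kb in shorter genes (SD, n = 19), a mean ratio of 2.40, larger in long genes on 18 of 19 autosomes (exact sign-flip permutation test, adjusted p = 5.72e-05). Chromosome 18 was again the exception, at 5.03 kb in long genes and 11.4 kb in shorter genes. More than 100 kb separated 209 of the 1699 member summits (12.3%) from any other, compared with 264 of the 19943 summits in shorter genes (1.32%). Close pairs occurred in both: 39 member summits (2.30%) and 648 summits in shorter genes (3.25%) had a neighbour within 1 kb.

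Enrichment at the peaks themselves was nearly the same. The median deposited fold was 7.21 in long genes (range 2.199 to 20.4) and 6.88 in shorter genes. Over autosomes it averaged 7.19 ± 0.522 in long genes and 6.86 ± 0.155 in shorter genes (SD, n = 19), a mean ratio of 1.05, higher in long genes on 14 of 19 autosomes (exact two-sided sign-flip permutation test, adjusted p = 0.0175). This small difference did not hold against shorter genes of 100 to 500 kb only, where the ratio was 1.02 (exact test, adjusted p = 0.225), nor under 6 other settings. Over the alternatives other than leaving out an autosome, the adjusted p of the exact test ran from 0.00105 to 0.779. A fold of 10 or more was reached by 360 member peaks (21.2%, exact binomial 95% interval 19.3 to 23.2%) and 4004 peaks in shorter genes (20.1%, 19.5 to 20.6%), where 19.6% of all autosomal peaks did and the intervals of both shares overlap. The deposited -log10 q had medians of 29.5 in long genes and 29.0 in shorter genes, and peak width had a median of 478 bp in long genes and 512 bp in shorter genes.

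The strongest member peak had a fold of 20.4 and lay in St6galnac3, a sialyltransferase gene, with its summit at 153501691 on chromosome 3, 223 kb from the nearer gene end. Pde4d, a cyclic AMP phosphodiesterase gene with 25 summits (19.2 per Mb), followed with 20.3 at 109210602 on chromosome 13. Immp2l, which encodes a subunit of a mitochondrial inner-membrane peptidase, had 4 summits in all, or 4.303 per Mb, and one of them reached 19.8, at 41487228 on chromosome 12 and 132 kb from any other summit. Tmem132d held 2 of the 10 strongest, with folds of 19.8 and 19.4. The others lay in the WW-domain oxidoreductase gene Wwox (19.6), the adhesion gene Sdk1 (19.5), Agbl4 (18.7), the calmodulin-dependent phosphodiesterase gene Pde1c (18.5) and the zinc-finger repressor gene Zbtb20 (18.2). High fold thus occurred in sparse and in dense genes: Agbl4 had 6.33 summits per Mb and Tmem132d 34.0.

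The densest members were the 3 models over the clustered protocadherins, a tandem array of adhesion genes whose promoters are known CTCF sites. Gm37013 had 66 summits (74.4 per Mb, with 54 in its flanks), Gm38666 had 64 (73.4, with 56) and Gm38667 had 63 (72.7, with 57). They share their summits, 66 distinct ones in all (3.88% of the member peaks), and each overlaps 57 annotated Pcdh genes. Their density is thus counted over this array. Without them the highest density was 40.0 per Mb (exact Poisson 95% interval 27.4 to 56.5), in Camta1, a calmodulin-binding transcription activator, whose flanks had 81 per Mb. Kalrn, a guanine nucleotide exchange factor, had 39.9 per Mb with 33 in its flanks. Nav2, a neuron navigator, had 35.4 per Mb with 18 around it, and 10 of its summits fell within 93.9 kb. Elmo1, a partner of Dock proteins in engulfment, had 33.0 per Mb with 10 in its flanks, and Ank2, an ankyrin, 31.2 with 25. Tmem132d had 34.0 per Mb with 69 around it. The flanks of these dense members thus ran from 10 per Mb at Elmo1 to 81 at Camta1. Across the 216 long genes, denser interiors went with denser flanks (Spearman correlation 0.59, a description).

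Summits were absent from the interiors of 10 genes. Besides Naaladl2 these were Sntg1 (942 kb), a syntrophin gene, Mgat4c (710 kb), a glycosyltransferase gene, Fstl5 (636 kb), a follistatin-like gene, Egfem1 (609 kb), Zfp804b (575 kb), Iqcm (536 kb), Skint5 (522 kb), the carboxypeptidase gene Cpq (511 kb) and Edil3 (502 kb), which encodes a matrix protein that binds integrins. For Naaladl2, a count of 0 allows up to 2.74 per Mb (upper exact Poisson 95% bound), and for Edil3 up to 7.38. Their flanks were not empty: they ran from 1 per Mb at Zfp804b and 3 at Naaladl2 to 17 at Egfem1 and at Iqcm. Exactly 1 summit was found in 11 genes, among them the neuregulin gene Nrg3, the cadherin gene Cdh18 and Adarb2, a relative of the RNA-editing deaminase genes. The lone summit of Adarb2 had a fold of 12.8.

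Grouped by role, 124 of the 216 long genes fell in 1 or more of 5 lists drawn up by known function. The 50 adhesion genes had a median of 6.32 summits per Mb, flanks with a median of 6.5, and 28 of them lay below their flanks. The 20 channel and receptor genes had a median of 6.64 with flanks of 13.5, and 16 lay below their flanks. The 20 common fragile site genes had a median of 7.51 with flanks of 14, and 16 lay below. The 26 genes of intracellular signalling had a median of 12.9 with flanks of 18.5, and 17 lay below. The 19 regulators of transcription and RNA had a median of 11.1 with flanks of 14, and 16 lay below. Over all 216 members the median was 7.93 and that of the flanks 14, with 75% below their flanks, and of all genes of 100 kb or more 65.9% lay below. Signalling and regulator genes thus sat above the overall median, and adhesion, channel and fragile site genes below it, with no test of these differences.

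Within the lists the longest members spread around these medians. Among channels and receptors, Dpp10, an auxiliary subunit of potassium channels, had 5.29 summits per Mb against 1 in its flanks, and Kcnip4, another potassium channel partner, 6.17 against 13. Among signalling genes Magi2 had 7.42 against 12 and Pde4d 19.2 against 21. Among regulators the splicing factor Rbfox1 had 11.1 against 9, Auts2, which acts with Polycomb complexes, 16.3 against 24, and the RNA-binding protein gene Rbms3 17.1 against 22.

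Among the families compared, 3 held paralogs whose counting intervals do not overlap. Cdh13, a cadherin without a transmembrane domain, had 26.2 summits per Mb (exact Poisson 95% interval 17.8 to 37.2), with Cdh12 at 2.61 (0.54 to 7.64) and Cdh18 at 1.08 (0.03 to 6.01). Their flanks differed too, with 53 per Mb at Cdh13, 4 at Cdh12 and 3 at Cdh18. The neuregulin gene Nrg1 had 10.2 (5.07 to 18.2) and Nrg3 0.90 (0.02 to 5.04), with 10 per Mb in the flanks of Nrg1 and 4 in those of Nrg3. Of the potassium channel subunits, Dpp6 had 19.8 (11.7 to 31.3) and Dpp10 5.29 (2.28 to 10.4), with 12 per Mb in the flanks of Dpp6 and 1 in those of Dpp10. In the other families given here the intervals overlap. Sox5 had 18.9 (11.2 to 29.9) and Sox6 5.28 (1.09 to 15.4), both Sox transcription factor genes. Csmd2 had 15.5 (7.11 to 29.5), Csmd1 9.75 (5.57 to 15.8) and Csmd3 4.96 (1.82 to 10.8). The axonal guidance receptor genes were at 12.8 (Robo1) and 6.44 (Robo2), and the teneurin adhesion genes at 10.6 (Tenm2), 9.49 (Tenm4) and 3.86 (Tenm3). The calcium release channel genes were at 14.5 (Ryr2) and 8.56 (Ryr3), and the forkhead genes at 13.4 (Foxp1) and 5.57 (Foxp2). The contactin genes were at 5.88 (Cntn4) and 3.94 (Cntn5), and the metabotropic glutamate receptor genes at 5.44 (Grm7), 2.33 (Grm8) and 1.82 (Grm5). These families were picked by name after values were at hand, so the contrasts are descriptions.

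A few genes with known roles in recombination, sperm or the nuclear envelope were picked by hand after their values were seen. Rad51b, a recombination factor of 551 kb, had 11 summits, or 20.04 per Mb, with 37 per Mb in its flanks. Spag16, a component of the sperm axoneme, had 2 summits in 898 kb, or 2.23 per Mb, with 10 around it. Syne1, a nesprin of the nuclear envelope, had 11 summits, or 20.8 per Mb, with 23 around it.

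Along the gene, summits were denser towards the ends. Interior bases within 50 kb of a gene end held 326 summits in 20.9 Mb, or 15.6 per Mb, and the rest of the interiors held 1373 in 159 Mb, or 8.65 per Mb. Over autosomes this was 16.8 ± 7.98 per Mb near the ends and 9.83 ± 5.68 in the deep interior (SD, n = 19), a mean ratio of 1.72, higher near the ends on 18 of 19 autosomes, chromosome 12 being the exception (exact sign-flip permutation test, adjusted p = 1.91e-05). In bins of 25 kb the density was 18.6 ± 9.09 per Mb in the first 25 kb inside, 16.1 ± 11.2 in the next, 10.3 ± 7.38 from 50 to 75 kb and 9.61 ± 6.25 from 225 to 250 kb. Outside, the first 25 kb had 17.98 ± 10.97. The lowest outside bin, from 75 to 100 kb, had 13.9 ± 8.31, and the outermost 25 kb of the flank had 20.3 ± 7.30.

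**Figure D5:**
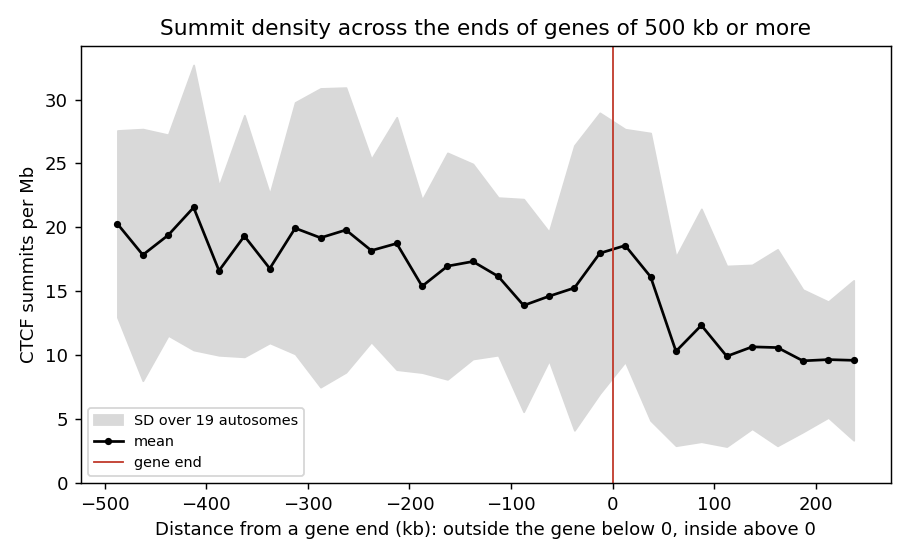
Summits per Mb (vertical axis) in 25-kb bins by distance from the gene end in kb (horizontal axis), inside and outside the long genes, as the mean with SD over autosomes. The density is 18.6 in the first bin inside and 9.61 at 225 to 250 kb inside.

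Strand was known for 169 of the 216 genes. In these, the 50 kb after the start held 110 summits (13.3 per Mb) and the 50 kb before the end held 139 (16.8 per Mb). Cut into 10 equal parts from start to end, the interiors had 10.6 summits per Mb in the first, between 7.23 and 9.85 in the following 8, and 13.7 in the last, over 1307 summits. The ends themselves, which the rule left out, were unlike: a summit lay within 1 kb of the start in 45 of 169 genes (26.6%) and within 1 kb of the end in 1 (0.592%), the GTPase exchange factor gene Dock2. Over all 16457 autosomal protein-coding genes of known strand, the shares were 35.4% for the start and 9.13% for the end. Some member peaks lay at other coding genes nested in or overlapping a long one. Within 1 kb of the end of another coding gene were 60 member summits (3.53%), compared with 277 summits inside shorter genes (1.39%). The 3 protocadherin models each overlap 61 other coding genes, and the 60 summits were not split between them and the remaining members. Without summits at the starts or ends of other genes, long genes averaged 9.61 per Mb over autosomes. They were then lower than shorter genes on 19 of 19 autosomes and lower than their flanks on 18.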

How the data were processed

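CTCF ChIP-seq of mouse testes (2 immunoprecipitated and 2 input samples) was analysed from 1 merged peak list. BWA 0.7.12, MACS2 2.2.7 and mm10 appear in the submitters' processing notes without a stated role. For each peak the authors deposited a fold enrichment (a ratio over background), a -log10 q and a summit offset. All of these are the authors' values, compared here only among peaks of that list. Read depth is unknown.

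Gene positions and promoter sequences came from RefSeq (GRCm38.p6). Genes starting below 3 Mb were left out as scaffold coordinates. Strand came from the promoter table. Pooled and per-autosome densities are summits per Mb of merged interiors. Those of length classes and of stranded genes were summed over genes, so a summit shared by overlapping genes counts in each. Log2 ratios within each of 19 autosomes were tested with an exact two-sided sign-flip permutation test, Benjamini-Hochberg adjusted over 5 tests at a threshold of 0.05. Intervals are exact 95% Poisson or binomial ones and cover counting error only. Python 3.11.15, numpy 2.4.6, pandas 2.3.3 and scipy 1.17.1 were used, and the statistics were tested on simulated data.

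Named genes were the 10 longest, the 5 densest and 5 sparsest, the 3 longest of each of 5 lists, those without a summit, those with the 10 strongest peaks, that with the largest gap and 3 on each side of the length limit. 1 gene that this rule names is not reported here. Others were chosen after their values were seen. The members and lists were chosen with earlier results of these data known. The planned motif search in peak sequences was not run, since no genome was used. Alternatives changed the length limit, margin, flank size, end zone, peak threshold and set of shorter genes.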

Additional observations from a re-analysis of the deposited data

How the results depend on the processing

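Of 156 recomputed values of the 5 tested comparisons, 149 kept their direction and their side of the 0.05 threshold. Leaving out 1 autosome gave 95 of the 156, all of which did so, and of the 61 from other settings 54 did. The 7 that did not all concern the fold ratio of long over shorter genes. In each, the mean log2 ratio kept its direction but was no longer past the threshold. With peaks of fold 5 or more only, the fold was lower in long genes on 11 autosomes and higher on 8. The fold ratio stayed past the threshold in 6 of its 13 settings other than leaving out an autosome. In the 7 settings where it did not, it was 1.02 for genes of 750 kb or more, 1.003 for peaks of fold 5 or more, 1.01 for the stronger part of the peaks by -log10 q (cut at the median), 1.02 with a margin of 10 kb, 1.02 against shorter genes of 100 to 500 kb, 1.05 with -log10 q in place of fold, and 1.02 against shorter genes within 1 Mb of a long gene. The cause was not tested. Leaving out 1 autosome at a time gave 0.349 to 0.399 for density over shorter genes, 0.548 to 0.585 over flanks, 1.04 to 1.05 for fold, 2.21 to 2.64 for the nearest-summit distance and 1.68 to 1.77 for ends over deep interior. Over the remaining alternatives these ratios ran from 0.345 to 0.492, 0.525 to 0.619, 1.003 to 1.052, 1.77 to 2.84 and 1.40 to 1.99. Of 220 recomputed densities of 44 named genes, 203 stayed within their Poisson interval.

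Some settings were chosen after seeing the data. These were the ones without the protocadherin models, with nearby shorter genes only and with the deep interiors against flanks. The setting without 1 kb around the starts and ends of all coding genes was also chosen then. No paired analysis was possible because peaks of a merged list carry no sample's value. Peaks under the threshold of the deposited list were not analysed here, and its depth is unknown.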
